A study of Drosophila melanogaster with 12 samples.

Results

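The circadian clock genes per, tim, Clk, cyc, vri, Pdp1, cry and cwo were followed as 8 of the 17807 gene rows of a count table from male Drosophila melanogaster forelegs. Their rows were found by matching FlyBase identifiers to these symbols, a step that used no measured value. The 8 genes and the gene lists below were chosen with earlier results of these data known. All 8 had counts in every library and were kept by the filter for low values. The table holds 12 libraries of polyA RNA, with 3 biological replicates of each of 4 genotypes. The series calls CO13N and the CS/CO13N hybrid selective and CS and RG11N promiscuous, without saying how this was scored. The sources used here give no age, treatment, number of flies or time of day of collection for any group, and not the direction or generation of the hybrid cross.

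In the fly clock the proteins of Clk and cyc form a heterodimer that switches on per, tim, vri, Pdp1 and cwo. The proteins of per and tim accumulate, enter the nucleus and shut that dimer off, which closes the main feedback loop. In a second loop VRI represses and the PDP1 epsilon isoform activates Clk, while CWO represses targets of the dimer, and cryptochrome, the product of cry, is a blue-light receptor that marks TIM for degradation. Many fly tissues outside the brain, appendages with taste and smell hairs among them, keep clocks of their own. In fly heads, transcripts of per, tim and vri are known to cycle with one phase, and those of Clk and cry with nearly the opposite phase. The level in a tissue of unknown collection time therefore depends on genotype and on time of day, which cannot be told apart here.

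Total counts were 26374831 to 36034966 per library, and 10996 genes were tested. Correlations of log2 CPM between replicates were 0.924 to 0.959. The foreleg gene Scr stood at 215.9 to 323.5 CPM (counts scaled to a common library size), the limb gene Dll at 283.9 to 412.8 and ppk23, a channel of pheromone-sensing taste neurons, at 791.9 to 1745.0, while Poxn stood at no more than 1.29, Gr68a at no more than 0.561 and Obp57d had no count. Summed odorant receptor genes, which are antennal, were 88.6 to 248.2 CPM in CS, 250.3 in hybrid replicate 3, 138.3 in RG11N replicate 3 and 13.4 to 24.1 in the other 7 libraries. Muscle markers summed to 1540.9 to 16906.6 CPM. The sum of neuron markers set RG11N apart. Its lowest library, replicate 1 with 8595.3 CPM, exceeded the top library of the remaining genotypes, hybrid replicate 2 with 7658.1. The part of neuron content in the differences of RG11N below was not tested. In these bulk samples a lower level can mean fewer cells that express a gene or less of its RNA per cell.

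Scaled to exon length, so that genes can be compared with each other, the median over 12 libraries was 100.3 CPM per kilobase for cry, 92.3 for Pdp1, 55.5 for tim, 46.5 for vri, 30.0 for cwo, 18.8 for Clk, 18.6 for cyc and 7.37 for per. Neighbours in this order often changed places. The level of cry per kilobase was above that of Pdp1 in 7 libraries, tim was above vri in 5, and Clk was above cyc in 6. Pdp1 was above tim, and cyc above per, in all 12. The neuropeptide gene Pdf, the marker of the ventral clock neurons of the brain, reached at most 1.01 CPM.

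**Figure D1:**
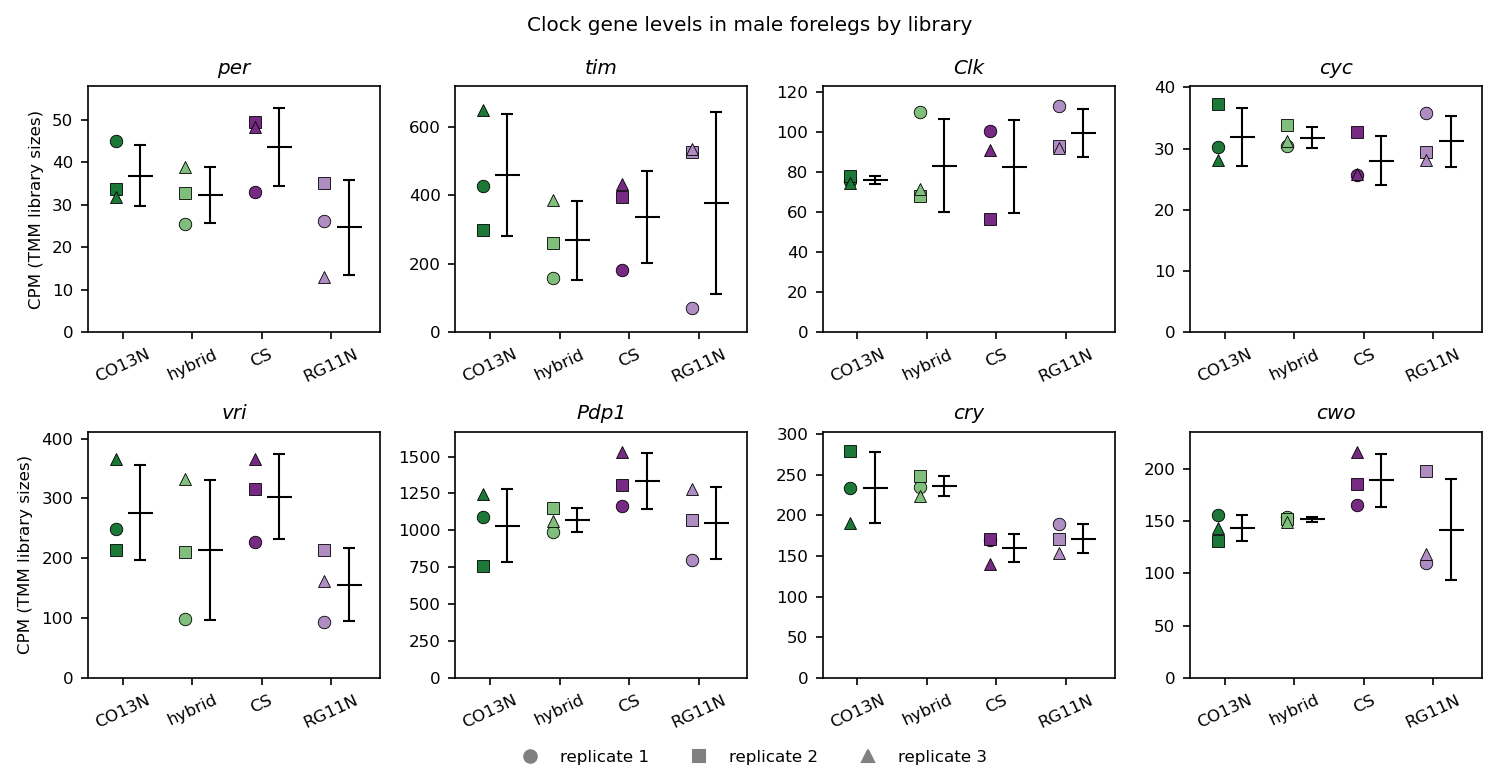
CPM (y axis, from 0) of each clock gene in the 12 libraries by genotype, green for selective and purple for promiscuous; symbols mark replicate numbers, and the bar beside them is the mean with its SD (n = 3). The 6 selective libraries of cry lie at 190.7 to 278.9 CPM and the 6 promiscuous ones at 140.1 to 189.5, whereas the tim libraries of RG11N spread from 68.6 to 537.0.

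The transcript of cry was the clock gene called between genotypes. cry (FBgn0025680; chromosome 3R, 19212154 to 19215442, plus strand, build dm6) was at 233.4, 278.9 and 190.7 CPM in CO13N replicates 1, 2 and 3, the order in which replicates are given throughout, and at 234.7, 249.0 and 224.1 CPM in the hybrid. CS libraries held 169.7, 171.2 and 140.1 CPM, and RG11N libraries 189.5, 171.5 and 153.7 CPM. No promiscuous library reached the level of any selective one, though the nearest of them, CO13N replicate 3 and RG11N replicate 1, were at 190.7 and 189.5 CPM.

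The mean of the selective genotypes was 235.1 CPM against 165.9 CPM, a log2 difference of 0.50 ± 0.10 (SE; 95% interval 0.29 to 0.72), or 1.42-fold, with an adjusted p of 0.00663 in edgeR's quasi-likelihood test. In that contrast 1 of 8 clock genes was called at an adjusted p under 0.05, beside 3.92% of all genes tested. It was also the 1 of 8 under 0.05 unadjusted, beside 16.6% of all genes, and the 1 whose classes did not overlap, beside 1.92%. The interval measures the spread of libraries within genotypes, and with 2 genotypes in each class it does not describe other selective or promiscuous strains.

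Taken pair by pair, the size of the cry difference was similar and the call was not. CO13N exceeded CS by 0.55 ± 0.15 on the log2 scale (adjusted p = 0.0457), and cry was the single clock gene called there, beside 3.14% of all genes. cry and cwo were under 0.05 unadjusted (14.2% of all genes) and had no overlap between the groups (19.7%). The hybrid minus CS was 0.56 ± 0.15 (adjusted p = 0.0927), CO13N minus RG11N 0.45 ± 0.15 (adjusted p = 0.0961) and the hybrid minus RG11N 0.46 ± 0.15 (adjusted p = 0.0844). edgeR called 0 clock genes in these 3 pairs, where in that order 0.973%, 4.1% and 4.47% of all genes were called, with cry alone at an unadjusted p under 0.05 in each, beside 9.09%, 16.5% and 17.3%. The libraries of the groups did not overlap for 3 clock genes in the hybrid against CS (Pdp1, cry and cwo, beside 14.6% of all genes), 3 in CO13N against RG11N (Clk, vri and cry, beside 22.7%) and cry alone in the hybrid against RG11N (23.3%). DESeq2 called cry in all 4 of these pairs and limma's voom in none of them. In CO13N against CS and then these pairs in the same order, DESeq2 called 6.13%, 2.1%, 7.86% and 8.09% of all genes. The shares for voom were 2.92%, 0.555%, 4.11% and 4.6%. The CO13N against CS call was kept in 7 of 24 alternatives (adjusted p 0.0116 to 0.65). Of the single libraries, it was kept without CO13N replicate 3, RG11N replicate 2 or RG11N replicate 3 and lost without each of the other 9. These pairs share libraries, so their values are not independent of each other.

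Within each class cry levels were close. RG11N minus CS was 0.10 ± 0.15 (95% interval -0.21 to 0.40), and the hybrid minus its selective parent CO13N was 0.01 ± 0.15 (95% interval -0.29 to 0.31). The hybrid exceeded the log2 mean of CO13N and CS by 0.28 ± 0.12, with an unadjusted p of 0.035 and an adjusted p of 1. edgeR called 0 clock genes against that mid-parent value, where 0.109% of all genes were called, and cry was under 0.05 unadjusted, beside 4.17% of all genes. DESeq2 and voom also called 0 clock genes there, beside 0.392% and 0% of all genes.

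A high odorant receptor signal stood beside a low cry level in some libraries and not in others. hybrid replicate 3 and RG11N replicate 3, the libraries of these genotypes with 250.3 and 138.3 CPM of odorant receptors, had the lowest cry level of their genotype. The other hybrid libraries held 17.3 and 16.0 CPM of odorant receptors and those of RG11N 21.7 and 24.1 CPM. In CS, replicates 1, 2 and 3 held 88.6, 248.2 and 138.8 CPM of odorant receptors beside 169.7, 171.2 and 140.1 CPM of cry, so the library with most of them had the highest cry. With the summed odorant receptors as a covariate the averaged difference was 0.42 ± 0.12 and was no longer called (adjusted p = 0.0935). Without both of those libraries it was 0.49 (adjusted p = 0.0294), and with the level of tim as a covariate 0.52 (adjusted p = 0.0017). The averaged call was kept without any single library (adjusted p 0.00232 to 0.0241).

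**Figure D2:**
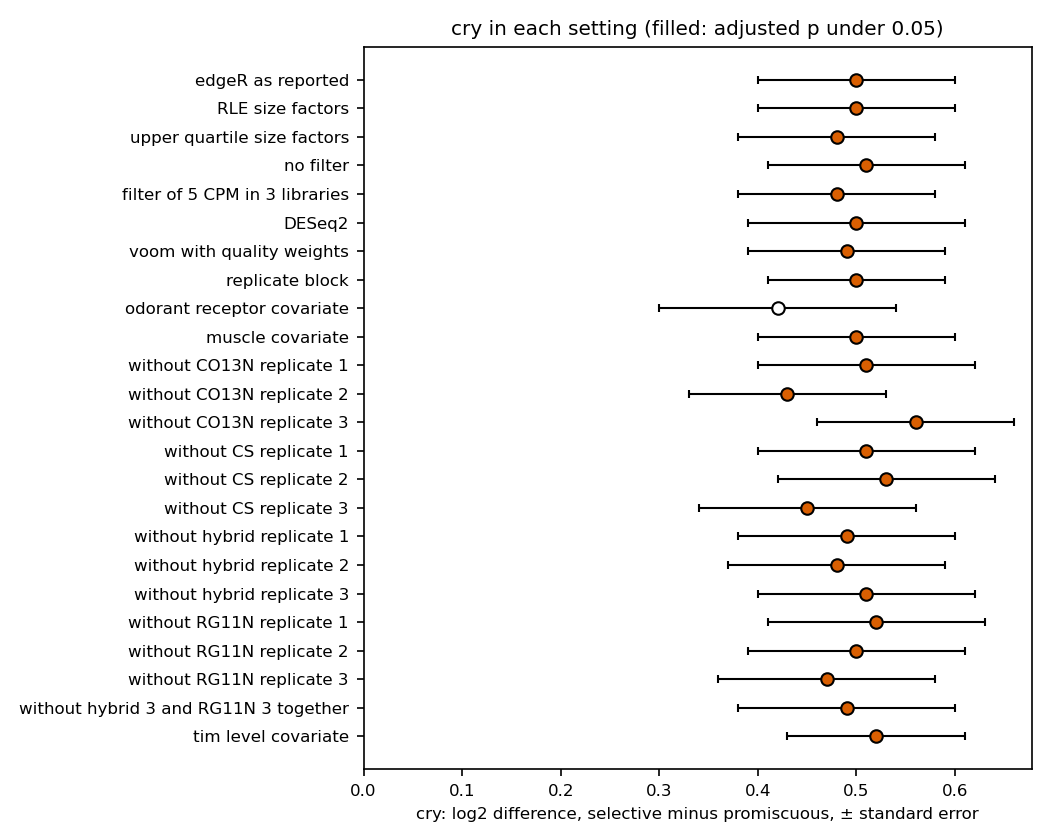
Log2 difference of cry, selective minus promiscuous (x axis), with its standard error, as reported and in each alternative setting (y axis); filled points have an adjusted p under 0.05. All points lie between 0.42 and 0.56, and the open point is the fit with the odorant receptor covariate.

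The exons of cry share 329 bases with lncRNA:CR46393 on the same strand, which had 0 to 17 counts per library, and 9 bases with vib on the opposite strand. Whether counting used strand is not stated in the sources used here.

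No difference of the activators Clk and cyc was called in any comparison or alternative. Clk (FBgn0023076; 3L, 7763233 to 7775603, minus strand), the bHLH-PAS partner that cycles in flies, was at 75.5, 78.2 and 74.5 CPM in CO13N libraries and at 110.0, 68.2 and 71.3 in hybrid ones. It was at 100.7, 56.6 and 91.2 CPM in CS libraries and at 113.3, 93.2 and 91.9 in those of RG11N. RG11N was above CO13N in every library, with CO13N minus RG11N at -0.39 ± 0.20 (95% interval -0.82 to 0.05, adjusted p = 0.373). cyc (FBgn0023094; 3L, 19813770 to 19815938, minus strand), its partner in the dimer and known for a transcript without a daily cycle, ranged only from 25.6 to 37.3 CPM. Its 6 pairwise differences lay between 0.00 and 0.19 on the log2 scale, each with an SE of 0.17.

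The repressors per and tim were not called in any comparison, and both spread widely between replicates. per (FBgn0003068; X, 2685580 to 2692780, plus strand) was at 45.1, 33.6 and 31.9 CPM in CO13N libraries and at 25.4, 32.7 and 38.8 in hybrid ones. It was at 33.1, 49.5 and 48.3 CPM in CS libraries and at 26.1, 35.1 and 12.9 in those of RG11N. RG11N replicate 3 was the lowest of the 12 libraries. RG11N minus CS was -0.82 ± 0.31 (95% interval -1.48 to -0.16), with an unadjusted p of 0.0185 and an adjusted p of 0.156. Without RG11N replicate 2 that difference was -1.16 and was called (adjusted p = 0.0409). per shares 49 exon bases with dyw on the opposite strand. dyw stood at 16.2, 15.7 and 22.7 CPM in RG11N and at no more than 11.8 CPM in any library of the other genotypes, so its higher libraries are those of the genotype with the lowest mean of per; the part of dyw reads in the per counts was not tested.

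tim (FBgn0014396; 2L, 3493986 to 3508119, minus strand), whose protein cryptochrome targets, spanned 9.48-fold between the lowest and the highest library. CO13N libraries held 427.7, 299.3 and 650.3 CPM and hybrid ones 157.0, 260.8 and 386.0. CS libraries held 181.7, 395.5 and 432.0 CPM, and those of RG11N 68.6, 526.9 and 537.0. All 4 genotypes overlapped. The selective and promiscuous means were 363.5 and 357.0 CPM. The fitted difference, an average over genotypes on the log2 scale, was -0.02 ± 0.52. It turned its sign or rounded to 0 in 12 of 23 alternatives. The alternatives include a fit with the level of tim itself as a covariate, where a difference near 0 was fixed beforehand. The 95% interval of the reported difference, -1.21 to 1.16, leaves room for a change of 2-fold in either direction. The pairwise intervals were wider, for example -1.23 to 2.13 for CO13N minus CS. tim shares 545 exon bases with the antisense lncRNA:CR46495, for which no count is used here.

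vri and Pdp1, the bZIP repressor and activator of the second loop, were not called in any comparison either. vri (FBgn0016076; 2L, 5288944 to 5311223, plus strand) was at 248.3, 214.0 and 366.5 CPM in CO13N libraries and at 99.1, 211.1 and 333.2 in hybrid ones. It was at 226.7, 316.2 and 366.4 CPM in CS libraries and at 92.6, 213.4 and 161.7 in those of RG11N. All 3 RG11N libraries were below all 3 of CS and of CO13N, and RG11N minus CS was -0.96 ± 0.47 (95% interval -2.03 to 0.12, adjusted p = 0.321). It was the 1 clock gene without overlap between RG11N and CS, beside 21.5% of all genes. Pdp1 (FBgn0016694; 3L, 7811458 to 7867369, minus strand) had the most counts of the 8 genes and was at 1088.2, 761.4 and 1243.4 CPM in CO13N libraries and at 989.5, 1152.9 and 1066.6 in hybrid ones. It was at 1163.1, 1305.3 and 1534.5 CPM in CS libraries and at 796.4, 1071.2 and 1280.6 in those of RG11N. Its largest pairwise difference was CO13N minus CS, at -0.37 ± 0.19 (adjusted p = 0.382). The gene also makes isoforms outside the clock, in muscle among other tissues, and a count per gene adds them all together.

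cwo (FBgn0259938; 3R, 10388258 to 10400752, plus strand), a bHLH-Orange repressor, was at 156.2, 131.1 and 143.6 CPM in CO13N libraries and at 153.9, 152.1 and 149.2 in hybrid ones. It was at 165.4, 185.2 and 215.8 CPM in CS libraries and at 109.4, 197.5 and 118.1 in those of RG11N. CS was above every library of CO13N and the hybrid, and RG11N replicate 2 stood apart from the other RG11N libraries. CO13N minus CS was -0.39 ± 0.18 (unadjusted p = 0.0419, adjusted p = 0.33), and RG11N minus CS was -0.41 ± 0.18 (unadjusted p = 0.0336, adjusted p = 0.217). Without RG11N replicate 2 the second of these was -0.73 and was called (adjusted p = 0.00648).

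In RG11N against CS, edgeR thus called 0 of 8 clock genes where it called 5.77% of all genes, with per and cwo under 0.05 unadjusted, beside 18.8% of all genes. In the hybrid against CO13N it called 0 of 8 beside 0.255% of all genes, with 0 under 0.05 unadjusted beside 4.67%. DESeq2 and voom also called 0 in these comparisons, beside 9.82% and 0.803% of all genes in DESeq2 and 3.97% and 0.327% in voom. The median log2 difference of the 8 genes was -0.12 and 0.00 in these comparisons and 0.02 for selective minus promiscuous, against medians of 0.00, -0.01 and 0.01 over all genes tested.

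**Figure D3:**
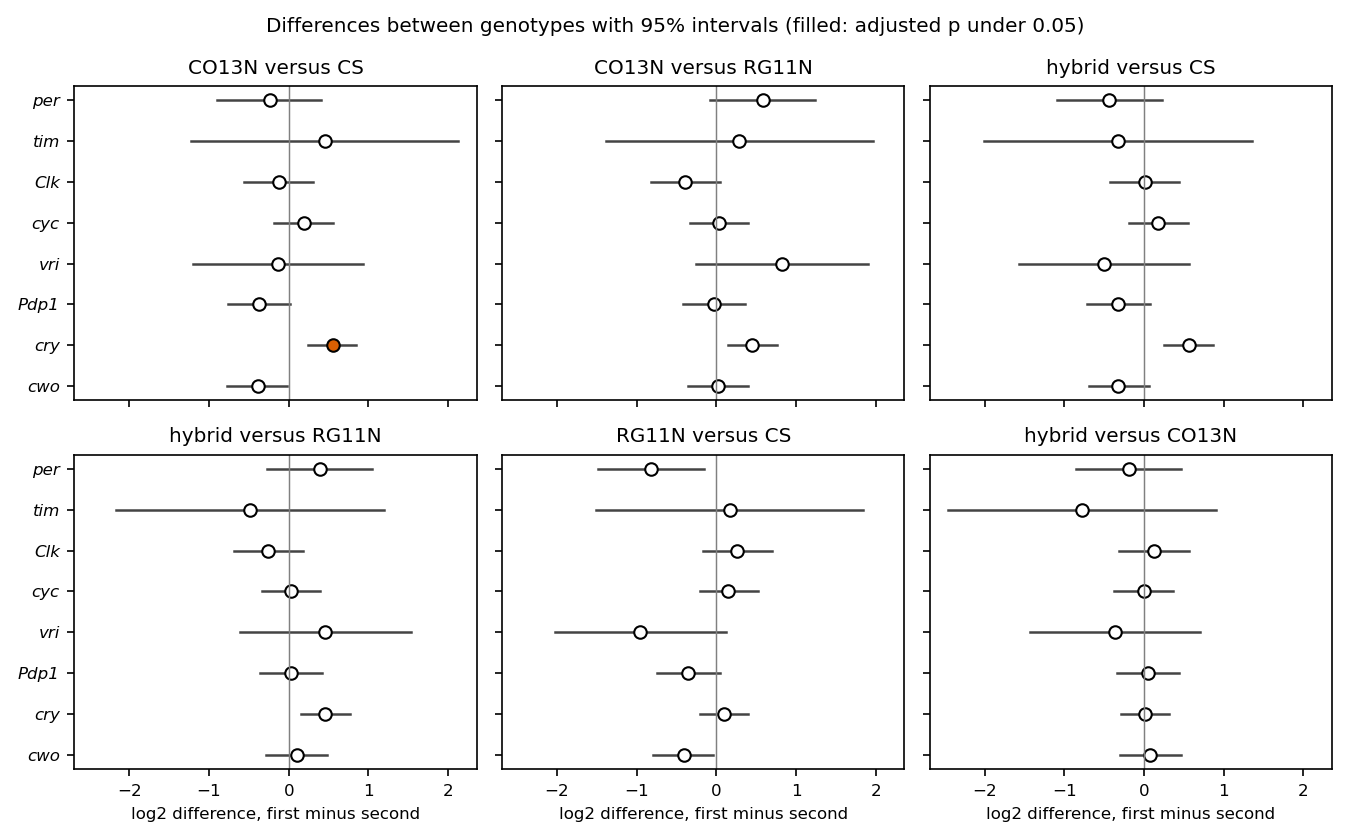
Log2 differences of the 8 clock genes (y axis) in the 6 pairs of genotypes, first named minus second (x axis), with 95% intervals; the filled point has an adjusted p under 0.05. The cry points lie at 0.45 to 0.56 in the 4 selective minus promiscuous pairs, and the tim intervals are the widest of the 8 genes.

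The spread between replicates separated the clock genes into variable and steady transcripts. The standard deviation of log2 CPM within genotypes was 1.01 for tim, 0.60 for vri, 0.45 for per, 0.30 for Clk, 0.28 for Pdp1, 0.26 for cwo and 0.18 for both cry and cyc. Among the 7805 genes with a mean log2 CPM of at least 2, tim ranked 124 from the most variable, vri 477 and per 1033, while cry ranked 5677 and cyc 5794. RG11N replicate 1 carried much of this for tim, at 1.97 below the mean of its genotype on the log2 scale, and hybrid replicate 1 for vri, at 0.95 below.

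**Figure D4:**
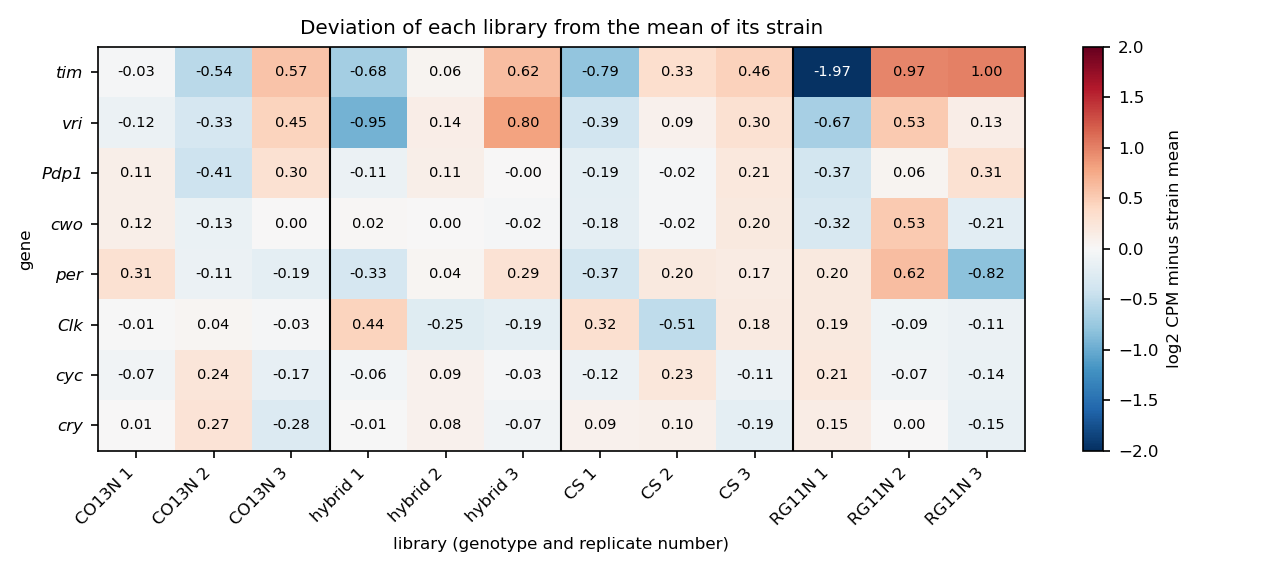
Log2 CPM of each clock gene (rows) in each library (columns) minus the mean of its genotype, in color and as numbers. tim and vri are low together in RG11N replicate 1 (-1.97 and -0.67) and hybrid replicate 1 (-0.68 and -0.95) and high together in the libraries numbered 3, where cry lies below its genotype mean.

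Deviations of tim and vri went together across the 12 libraries. With genotype means removed, Pearson's r was 0.828 (exact permutation within genotypes, two-sided p = 0.00154, adjusted over the 28 pairs of clock genes 0.0432) and Spearman's rho was 0.853 (exact permutation p = 0.00386, adjusted p = 0.108). Without RG11N replicate 1 and CS replicate 1, the libraries farthest out in tim, r was 0.832. The libraries of CO13N, the hybrid and CS stood in the same order for both genes. This was the 1 pair of 28 past the threshold for r, and by rho no pair was. Without each single library in turn r was 0.795 to 0.901, and adjusted p was 0.0648 to 0.13 with 432 permutations in place of 1296. Their smallest possible p of 0.00231 gives 1 pair alone an adjusted p of 0.0648 at best. Missing the threshold in those fits was thus fixed beforehand for 1 pair alone, whatever its r. After regression on the summed odorant receptors tim and vri missed the threshold with r at 0.748 (exact permutation p = 0.0394, adjusted p = 0.184).

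The next pairs had a permutation p under 0.05 that did not hold after adjustment. tim and Pdp1 had r = 0.805 and rho = 0.741 (exact permutation p = 0.00386 and 0.0224, adjusted p = 0.054 and 0.186), and r was 0.703 without the outermost libraries in tim. Pdp1 and cry went in opposite directions, with r = -0.861 and rho = -0.804 (exact permutation p = 0.0139 and 0.0216, adjusted p = 0.13 and 0.186; r = -0.764 without CO13N replicate 2 and RG11N replicate 1). cry and tim had r = -0.619 and rho = -0.664 (exact permutation p = 0.0347 and 0.0332, adjusted p = 0.139 and 0.186; r = -0.586 without RG11N replicate 1 and CS replicate 1). In every genotype the library numbered 3 had the highest tim and the lowest cry of its 3; the labels do not say that a number marks a shared day or batch. Clk and tim had r = -0.558 and rho = -0.657 (exact permutation p = 0.0278 and 0.0332, adjusted p = 0.133 and 0.186; r = -0.458 without those libraries).

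vri and Pdp1 had r = 0.625 and rho = 0.622 (exact permutation p = 0.0247 and 0.0525, adjusted p = 0.133 and 0.203; r = 0.535 without hybrid replicate 1 and RG11N replicate 1). cyc and cry varied in the same direction, with r = 0.801 and rho = 0.769 (exact permutation p = 0.0285 and 0.0401, adjusted p = 0.133 and 0.187; r = 0.717 without CO13N replicate 2 and CS replicate 2). per and tim, the partners of the repressor complex, had r = 0.05 and rho = 0.168 (exact permutation p = 0.953 and 0.727, adjusted p = 0.988 and 0.814), and r was 0.235 without RG11N replicates 2 and 3. That value rests on single libraries, since r was 0.681 without RG11N replicate 3 (exact permutation p = 0.0556, adjusted p = 0.173), 0.391 without RG11N replicate 1 and -0.269 without RG11N replicate 2. RG11N replicate 3 had the lowest per of all libraries and a tim level of 537.0 CPM. The ratio of vri to Clk counts, not scaled to length, was 0.817 in RG11N replicate 1 and 0.901 in hybrid replicate 1 and 1.76 to 5.59 in the other 10 libraries.

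**Figure D5:**
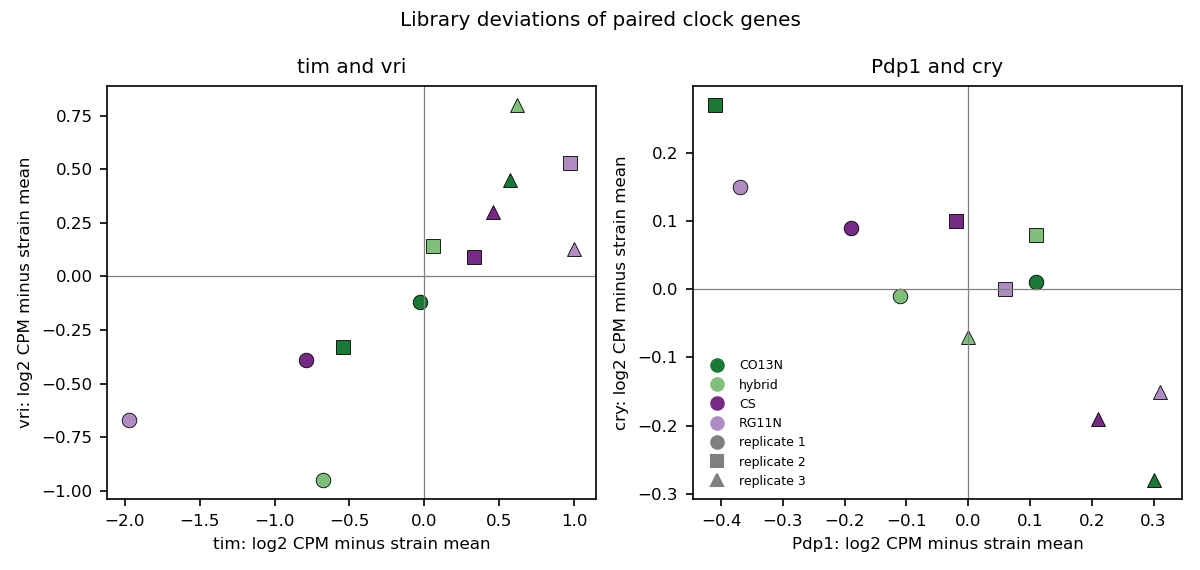
Log2 CPM minus the mean of the genotype for vri against tim (left) and for cry against Pdp1 (right), 1 point per library, colored by genotype and shaped by replicate number. Pearson's r is 0.828 on the left and -0.861 on the right; only the left pair is past the adjusted threshold.

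Other transcripts followed tim as closely as clock genes did. Among 7804 genes, the 3 whose deviations were most like those of tim were CG40498 (r = 0.953), the ribosomal protein gene RpS12 (0.952) and the odorant-binding protein gene Obp57c (0.951), while vri ranked 79 and Pdp1 112. The 3 most like vri were RpS10b (0.981), RpS3 (0.95) and CG31344 (0.938). Ribosomal protein genes, looked at after these values were seen, summed over 82 genes to 32946.3 to 42906.1 CPM, and in all 4 genotypes the libraries stood in the same order for this sum as for tim. The deviations of the sum were at most 0.14 on the log2 scale in either direction, against 1.97 for tim. The part of such library-wide differences in the relation of tim and vri was not tested.

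For the other members the nearest genes by deviation were Ggamma30A, ben and CG3107 for Pdp1 (r = 0.978, 0.961 and 0.945) and MRP, CG2145 and Men-b for cry (0.964, 0.964 and 0.953). For Clk they were CG11409, the heat shock gene Hsp70Ab and Arfip (0.983, 0.953 and 0.946). They were CG14694, Bap60 and TwdlT for cyc (0.965, 0.933 and 0.933), CG14982, CG31793 and BRWD3 for per (0.935, 0.902 and 0.896) and CysRS, BomT2 and Tsp86D for cwo (0.899, 0.895 and 0.888). All values are over 12 libraries that share depth and composition, and each gene was picked as the highest of many, so they describe these libraries only.

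When genotype differences were kept in, the nearest genes to cry were GstD1, a glutathione S-transferase (r = 0.957), Trxr1, a thioredoxin reductase (0.927), and CG8814 (0.927). Mean GstD1 levels were 1766.1 and 1733.0 CPM in CO13N and the hybrid and 1099.3 and 1265.5 CPM in CS and RG11N. Its selective libraries, at 1361.9 to 2175.9 CPM, overlapped the promiscuous ones, at 881.5 to 1471.4. Those nearest to Clk were CG11409 (0.984), the chaperone gene Hsp83 (0.896) and Herc4 (0.866). Among those nearest to Pdp1 were eIF4B (0.933) and RpL27 (0.922), and those nearest to vri were dmt (0.918), RpL23 (0.912) and RpLP2 (0.880). For per they were CG9213 (0.920), PolZ1 (0.871) and AdamTS-B (0.854), and for cyc CG8237 (0.852), Bap60 (0.851) and Vha100-2 (0.850). For cwo they were CG18538 (0.842), CG14301 (0.835) and bbc (0.827), and for tim FBgn0026749 (0.865), RpL27A (0.863) and RpS21 (0.859).

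The kinases, phosphatases and degradation factors that act on clock proteins had no called difference in edgeR. All 19 on the list were tested and 0 were called in each of the 8 comparisons, where 0.109% to 5.77% of all genes were called. At most 2 were under 0.05 unadjusted in a comparison, beside 4.17% to 18.8% of all genes. The casein kinase gene dco (doubletime), which phosphorylates PER, had means of 120.3 CPM ± 4.69 for CO13N, 121.4 ± 19.7 for the hybrid, 118.1 ± 11.6 for CS and 129.2 ± 6.68 for RG11N (SD, n = 3). DESeq2 called CkIIalpha, a casein kinase subunit, in selective against promiscuous (-0.34, adjusted p = 0.0249). It also called ctrip, a ubiquitin ligase that acts on CLK, in the hybrid against RG11N (-0.46, adjusted p = 0.00663) and in RG11N against CS (0.39, adjusted p = 0.0258), and voom called ctrip in the first of these (adjusted p = 0.0462). Of all genes DESeq2 called 7.24%, 8.09% and 9.82% in these comparisons in the order given, and voom 4.6% in the hybrid against RG11N.

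Of 13 other regulators of clock transcription and translation 12 were tested, and lark was the single one called by edgeR. lark, an RNA-binding protein that promotes translation of clock transcripts, had means of 70.0 CPM ± 3.6 for CO13N, 61.4 ± 4.09 for the hybrid, 45.6 ± 7.55 for CS and 53.3 ± 9.28 for RG11N (SD, n = 3). CO13N exceeded CS (0.62 ± 0.16, adjusted p = 0.0329) and selective exceeded promiscuous libraries (0.41 ± 0.11, adjusted p = 0.0407), where hybrid and RG11N libraries overlapped. In each of these comparisons lark was 1 of 12 tested, or 8.33% of the list, beside 3.14% and 3.92% of all genes.

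Of the genes of clock input and output, 17 of 19 on the list were tested and several were called, in directions that differed by gene. In selective against promiscuous 0 were higher and 2 lower, that is 11.8% of the list beside 3.92% of all genes. norpA, the phospholipase C that links light and temperature receptors to the clock, stood at 70.6 to 84.9 CPM in the 6 selective libraries and at 103.4 to 149.4 CPM in the 6 promiscuous ones, without overlap (-0.62 ± 0.09, adjusted p = 0.000509). Slob, a rhythmic partner of the slowpoke potassium channel, had means of 168.1 and 174.0 CPM in CO13N and the hybrid against 188.0 and 250.5 CPM in CS and RG11N (-0.34 ± 0.09, adjusted p = 0.0371). CS libraries, at 176.2 to 200.7 CPM, overlapped those of CO13N (151.9 to 180.9) and of the hybrid (160.2 to 186.6). Those of RG11N stood at 234.6 to 282.2 CPM, and DESeq2 called RG11N above CS (0.41, adjusted p = 0.0169).

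In CO13N against CS 1 gene of that list was higher and 2 lower, or 17.6% of the list beside 3.14% of all genes. The opsin gene Rh7 stood at 9.16 CPM ± 2.34 in CO13N and 1.67 ± 1.41 in CS (SD, n = 3; 2.45 ± 0.56, adjusted p = 0.0185), while norpA was lower (-0.55 ± 0.13, adjusted p = 0.0269). takeout (to), a clock output gene named after its values were seen, was also lower, at 33.2 CPM ± 10.2 against 219.4 ± 83.9 (-2.73 ± 0.57, adjusted p = 0.0414). In RG11N against CS 0 were higher and 3 lower, or 17.6% beside 5.77% of all genes. These were qsm, a light-input factor (-0.68 ± 0.17, adjusted p = 0.0234), to (-2.68 ± 0.57, adjusted p = 0.0302) and Pdfr, the receptor of the PDF neuropeptide and also named after its values were seen, at 4.87 CPM ± 1.51 against 12 ± 2.61 (-1.30 ± 0.33, adjusted p = 0.0234). voom did not call Rh7 in the first of these comparisons, nor qsm or Pdfr in the second.

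Against RG11N, norpA and Slob were lower in CO13N (-0.78 ± 0.13 and -0.58 ± 0.13, adjusted p = 0.00184 and 0.0127) and in the hybrid (-0.69 ± 0.13 and -0.53 ± 0.13, adjusted p = 0.00428 and 0.0226), and qsm was higher in the hybrid (0.81 ± 0.17, adjusted p = 0.00882). In the hybrid against CS, against CO13N and against the mid-parent value edgeR called 0 of this list, beside 0.973%, 0.255% and 0.109% of all genes. There 3, 3 and 1 genes of the list were under 0.05 unadjusted, beside 9.09%, 4.67% and 4.17% of all genes. DESeq2 called norpA in the hybrid against CS (-0.47, adjusted p = 0.0287), where it called 2.1% of all genes. It called 0 of the list in the other 2, and voom 0 in all 3. All 3 CS libraries were high in both to (159.9 to 315.4 CPM) and odorant receptors (88.6 to 248.2 CPM). CO13N libraries were low in both (24.5 to 44.3 and 13.4 to 17.9 CPM). RG11N replicate 3 held 138.3 CPM of odorant receptors, yet to was at most 58.9 CPM in RG11N. Hybrid replicate 3 held 250.3 CPM of them, and to was at most 136.6 CPM in the hybrid. The part of antennal tissue in the differences of this list was not tested.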

How the data were processed

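The values are raw counts per FlyBase gene as deposited by the authors. Subread and the build dm6 are named in the submitters' processing notes. Versions, annotation release, strand and the treatment of reads that map to several places are not given in the sources used here. Per the labels, polyA RNA was extracted with PicoPure and TriZol and made into Nextera XT libraries. Symbols, positions and exon lengths came from Ensembl BDGP6, which matched 17710 of 17807 identifiers.

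Counts were filtered with filterByExpr (minimum count 10), scaled by TMM and fitted in edgeR 4.0.16 as 4 genotype means with 8 residual degrees of freedom, with robust quasi-likelihood tests. Calls are at a Benjamini-Hochberg adjusted p under 0.05 over 10996 genes. Standard errors were approximated from the F statistic. Log2 CPM used a prior count of 2. CPM of single genes used TMM library sizes, and marker sums used total counts. Pairs of clock genes were tested with all 1296 permutations within genotypes. limma 3.58.1 and DESeq2 1.42.0 were alternatives. On data simulated for CO13N against CS, with 100 genes planted at each size, edgeR recovered 37.5% at 2-fold and 66% at 4-fold. In that step 10459 genes passed the filter, and the first share is not over all 100 planted. There 4 genes were called that were not planted. A count of 0 allows up to 3 counts in a library, for counting error only.

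All 8 members are named. Other genes are named where they are among the 4 of a list with the lowest p and called, or the 3 most like a member with a mean log2 CPM of at least 2. 1 of the genes so chosen is not reported here. Named outside this rule, after values were seen, are dco and Pdf for their role, dyw for its overlap, CkIIalpha and ctrip as calls of other tools, to and Pdfr. The members and lists were chosen with earlier results of these data known.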

Additional observations from a re-analysis of the deposited data

How the results depend on the processing

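cry kept its direction in every alternative of every selective against promiscuous comparison, and its averaged call was lost in the fit with the odorant receptor covariate (0 clock genes called). In CO13N against CS the count of called clock genes was 0 with RLE or upper quartile factors, a filter of 5 CPM, voom, only these 2 strains, the odorant receptor or the muscle covariate, and without hybrid replicate 3 and RG11N replicate 3 together. Of all genes 0.891% to 4.18% were called in those settings. The count of clock genes was 1 with DESeq2 in CO13N against RG11N, the hybrid against CS and the hybrid against RG11N, beside 7.86%, 2.1% and 8.09% of all genes. With the tim covariate it was 1 in CO13N against RG11N, beside 6.01%. That covariate and leaving out pairs of libraries were chosen after seeing the data. With 1 library left out the count was 0 to 1 in CO13N against CS and CO13N against RG11N, 0 to 2 in RG11N against CS, 1 to 1 in selective against promiscuous, and 0 to 0 in the other 4 comparisons.

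With replicate number as a block, 1 clock gene, cry, was called in the hybrid against CS and in the hybrid against RG11N, beside 1.02% and 5.09% of all genes. No other count of called clock genes changed. Of 18 same-numbered pairs of libraries 2 had a correlation of deviations over 0.1 (range -0.089 to 0.209, median 0.024). Of 36 pairs with different numbers 0 did (range -0.128 to 0.096, median -0.027). The closest library in another genotype had the same number in 16 of 36 cases. Whether a number marks a shared day or batch was not tested. The pair count of 1 was 0 without centring on genotype means and 0 after regression on the odorant receptor sum. It was 0 to 0 with 1 library left out, 0 without hybrid replicate 3 and RG11N replicate 3 and 0 without the first replicates of both genotypes. In the fits with libraries left out the permutations were too few for 1 pair alone to pass, whatever its r. Of 64 differences, the 9 with an unadjusted p under 0.05 kept their sign in every alternative. Of the other 55, 28 changed sign or had a rounded difference of 0 in at least 1 setting. For tim these settings include the fit with its own level as a covariate, where a difference near 0 was fixed beforehand. The cause of the other changes was not tested.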
